A study of Homo sapiens with 8 samples.

Results

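Mitochondrial ribosomal protein genes were examined in human esophageal epithelial cells with a lentiviral knockdown of HIF1A, which encodes the part of HIF-1 that oxygen destabilises. Members were the genes in the deposited expression table whose symbol starts with MRPL or MRPS followed by a digit, without pseudogenes. The rule found 78 of 25369 genes, of which 48 carry a large subunit name (MRPL) and 29 a small subunit name (MRPS). The remaining member, MRPL23-AS1, is an antisense RNA. The names and the structure of the mammalian mitoribosome differ in a few places: the MRPS30 and MRPS18A proteins sit in the large subunit, and MRPS36 is a subunit of the 2-oxoglutarate dehydrogenase complex. The rule left out 3 pseudogenes, MRPL42P5, MRPL45P2 and MRPS31P5, which stayed at or below 1.20 RPKM in every library.

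The cells were EPC2-hTERT, esophageal epithelial cells immortalised with telomerase. Bulk RNA was sequenced from 4 libraries of the HIF1A-KD line, which carries a lentiviral short hairpin against HIF1A, and from 4 libraries of the shCtrl line, which carries a control hairpin and is otherwise grown alike. Both lines were grown on membranes with 0.4 µm pores, reaching confluence over 2 days. They then had 1.8 mM calcium chloride for 5 days and an air-exposed surface for a further 4 days, conditions in which esophageal epithelium stratifies. The labels do not say how many transductions each line stands for, nor that the libraries came from separate cultures, so the p-values may measure technical spread alone. The labels also describe DMSO vehicle and dimethyloxalylglycine treatments without assigning either to a library.

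Mitochondrial ribosomes translate the few proteins that mitochondrial DNA encodes, all of them core subunits of the respiratory chain and ATP synthase. All of their proteins are encoded in the nucleus, made in the cytosol and imported, and they join ribosomal RNAs transcribed inside the mitochondrion. Some have bacterial counterparts and others were added in the mitochondrial lineage. HIF-1 is known for moving cells from respiration towards glycolysis.

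The promoters of 69 of the 77 protein-coding members were found in RefSeq's table (GRCh38.p14), each with 250 bases before and 50 after the start. Printed here are MRPS7 and MRPL20, which had the largest positive changes of their subunits, and MRPS24 and MRPS15, which were lower in HIF1A-KD in 4 of 4 pairs of same-numbered libraries. Their windows are chr17:75261629-75261928 on the plus strand for MRPS7, chr1:1407244-1407543 on the minus strand for MRPL20, chr7:43869468-43869767 on the minus strand for MRPS24, and chr1:36464335-36464634 on the minus strand for MRPS15. They run 5′ to 3′, and capitals mark matches to a searched motif on either strand.
MRPS7: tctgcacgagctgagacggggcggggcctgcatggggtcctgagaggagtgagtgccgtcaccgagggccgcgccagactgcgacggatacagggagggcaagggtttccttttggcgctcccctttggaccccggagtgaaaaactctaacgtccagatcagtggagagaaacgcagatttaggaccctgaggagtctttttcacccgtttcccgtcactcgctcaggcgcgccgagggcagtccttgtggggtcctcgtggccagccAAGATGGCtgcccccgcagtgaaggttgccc
MRPL20: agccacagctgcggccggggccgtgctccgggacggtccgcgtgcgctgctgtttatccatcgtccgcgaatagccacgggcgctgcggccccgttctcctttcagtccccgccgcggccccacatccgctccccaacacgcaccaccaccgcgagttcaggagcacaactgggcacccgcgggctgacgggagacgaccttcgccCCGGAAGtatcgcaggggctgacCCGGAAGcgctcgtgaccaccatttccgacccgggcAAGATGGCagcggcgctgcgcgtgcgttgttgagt
MRPS24: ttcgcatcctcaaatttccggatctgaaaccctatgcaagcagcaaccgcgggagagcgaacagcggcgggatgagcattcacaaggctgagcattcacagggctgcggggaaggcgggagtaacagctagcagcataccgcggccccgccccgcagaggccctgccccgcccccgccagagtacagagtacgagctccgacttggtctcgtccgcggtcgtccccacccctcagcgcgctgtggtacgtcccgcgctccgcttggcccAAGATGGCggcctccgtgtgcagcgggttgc
MRPS15: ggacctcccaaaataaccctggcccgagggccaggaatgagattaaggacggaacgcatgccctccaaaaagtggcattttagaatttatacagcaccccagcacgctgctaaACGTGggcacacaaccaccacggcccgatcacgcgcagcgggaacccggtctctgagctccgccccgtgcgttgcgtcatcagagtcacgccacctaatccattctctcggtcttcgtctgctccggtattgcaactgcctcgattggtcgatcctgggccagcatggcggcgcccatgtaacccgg

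Searched on both strands were the ETS motif CCGGAAG, the YY1 motif AAGATGGC, the NRF1 core (GCGCA and GCGC with any base between them), the HIF core ACGTG and the E-box CACGTG, which contains the HIF core. The capitals in MRPS7 and MRPS24 are a YY1 motif each, those in MRPL20 are 2 ETS motifs and a YY1 motif, and those in MRPS15 are a HIF core. A YY1 motif was present in 20 of 69 member promoters (29.0%), against 3.03% of all 27305 promoters in the table and 3.91% of the 15843 protein-coding ones. An ETS motif was present in 28 member promoters (40.6%), against 10.7% of all and 14.2% of protein-coding promoters. The NRF1 core was found in 8 (11.6%, against 6.28% of all and 8.58% of protein-coding promoters), the E-box in 7 (10.1%, against 7.43% and 8.88%) and the HIF core in 20 (29.0%, against 21.6% and 23.7%). Of the 21 YY1 matches, 15 began after the start site, and 32 of the 37 ETS matches began within 100 bases of it. Both motifs were present in 8 members, and 29 had neither. These letter matches describe the windows and do not show binding.

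HIF1A itself had 27.6, 19.0, 54.8 and 45.0 RPKM in HIF1A-KD 1 to 4, against 95.2, 51.4, 89.8 and 122 RPKM in shCtrl 1 to 4. RPKM is the read number scaled by gene length and by library total. The groups overlapped, because HIF1A-KD 3 lay above shCtrl 2. The log2 change, HIF1A-KD minus shCtrl, was −1.34 ± 0.37 (SE), with a limma adjusted p of 0.319 unpaired and 0.0253 with the library number as a block. Totals implied by the values were 38068729 to 65326907 reads in HIF1A-KD and 43205845 to 52401547 in shCtrl. Suprabasal esophageal markers (6 genes) summed to 8413 to 11532 RPKM in HIF1A-KD, against 1538 to 6462 in shCtrl, without overlap. Basal markers (7 genes) summed to 9827 to 12108 RPKM in HIF1A-KD and 8367 to 12335 in shCtrl, so the labelled epithelial identity was present in both lines. In bulk RNA, fewer cells of a type and less RNA per cell cannot be told apart, and the part of this marker difference in the values below was not tested. Among markers of other cells, PTPRC, CD3E, MLANA and TYR were at 0 in every library, and PECAM1, CDH5, COL1A2, COL3A1, DCN and LUM were under 0.05 RPKM. COL1A1, a collagen gene of fibroblasts, made nearly all of the 6-gene fibroblast sum, which was 14.1 to 19.2 RPKM in HIF1A-KD and 21.2 to 27.7 in shCtrl. CD68, a macrophage marker, had 19.0 to 85.7 RPKM in HIF1A-KD and 23.5 to 115 in shCtrl, and the 4 endothelial markers, nearly all VWF, summed to 1.39 to 12.8 in HIF1A-KD and 0.748 to 15.4 in shCtrl.

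All 77 protein-coding members passed the filter of 0.5 RPKM in at least 4 libraries, and only the antisense RNA, with 0 to 2 reads per library, was left out. Their mean levels spanned 43.2-fold, from MRPS18B, whose level is uncertain, to MRPL51, and the median member had 20.2 RPKM. In the large subunit MRPL51, a mitochondria-specific protein, had the highest mean (109 RPKM), followed by MRPL41 (63.9) and MRPL37 (57.3). MRPS15 (66.0 RPKM), MRPS34 (65.5) and MRPS6 (47.1) led the small subunit names, and the means of MRPS15 and MRPS34 differed by less than their spread between libraries. The lowest of the large subunit were MRPL30 (5.91), MRPL19 (6.56), which sits at the subunit interface, and MRPL22 (6.79), which lines the exit tunnel. MRPS18B (2.53), MRPS25 (3.09) and MRPS14 (6.58) were the lowest of the small subunit. MRPS18B is placed on chromosome 6 and 6 haplotype copies of it in the table, so its length could not be read and its level is uncertain.

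No mitochondrial ribosomal protein gene passed the adjusted threshold between HIF1A-KD and shCtrl in the unpaired fit of the RPKM values or with libraries paired as numbered, and 57 of 77 had a log2 change of at most 0.25 in size. With limma on log2(RPKM + 0.1), 0 of 77 members passed an adjusted p of 0.05, against 5 of 11899 genes tested (0.0420%). HIF1A itself did not pass in that fit (limma adjusted p 0.319), so the absence of calls does not show that members were unchanged. With the library number as a block, 0 members passed, against 218 genes (1.83%). The smallest adjusted p of any member was 0.413 for MRPS24 unpaired and 0.0569 for MRPS7 in the blocked fit. At an unadjusted p of 0.05, 5 members (6.49%) passed unpaired, against 7.80% of all genes, and 14 (18.2%) passed in the blocked fit, against 19.6%. Which libraries of numbers 3 and 4 belong together is uncertain, because their deviations from the line means correlated more when crossed (0.463 and 0.613) than as numbered (0.252 and 0.257). With these numbers crossed, a pairing chosen after seeing the data, 9 of 77 members (11.7%) passed limma's adjusted threshold, against 1327 genes (11.2%). MRPS7, MRPL20, MRPS28, MRPS10, MRPS18A and MRPL27 were higher in HIF1A-KD in that fit, and MRPS24, MRPS26 and MRPS15 lower. The share of members called was close to that of all genes in this fit. Limma-voom on reads recovered from the values called 0 members and 3 genes in all. It did not cover MRPS18B, which has no readable length. The median standard error of a member was 0.21 on the log2 scale unpaired and 0.12 blocked, and no member had a log2 change of 1 or more in size, which 4.77% of all genes had.

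**Figure D1:**
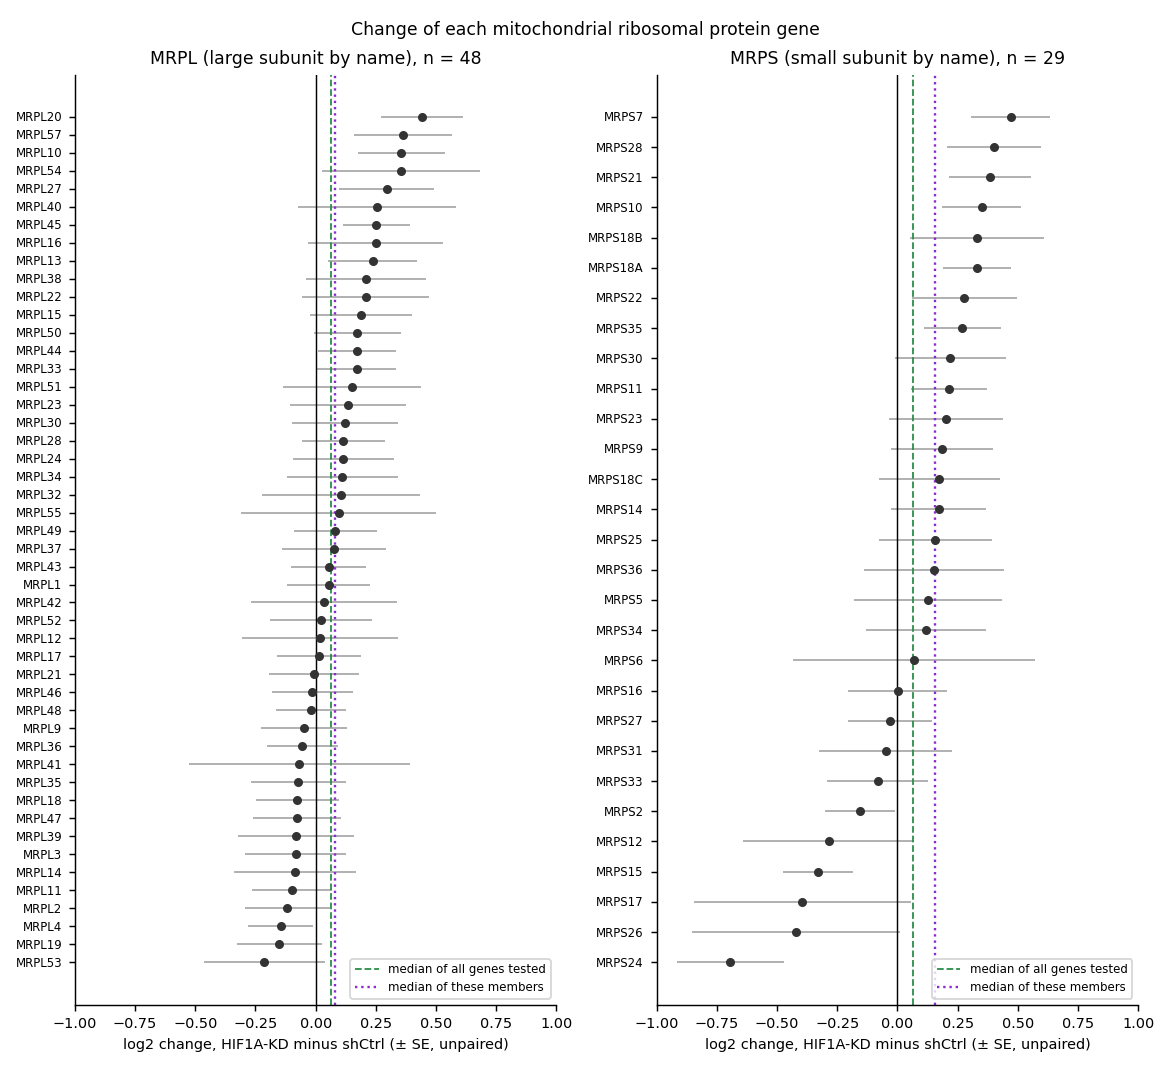
Log2 change (HIF1A-KD minus shCtrl, ± SE of the unpaired limma fit) of each of the 48 MRPL and 29 MRPS genes. MRPS7 (0.47) and MRPL20 (0.44) are highest and MRPS24 (−0.69) is lowest, and the dashed line marks the median of all genes tested (0.06).

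The large subunit genes had a median log2 change of 0.08, with 31 of 48 above 0, and the small subunit genes a median of 0.16, with 20 of 29 above 0. Across all genes tested the median was 0.06 and 58.7% were above 0. With median-of-ratios scaling the median of all genes was −0.01, that of the large subunit 0.01 with 25 of 48 above 0, and that of the small subunit 0.09 with 18 of 29 above 0. Assigned by structure, the medians were 0.09 for the large and 0.14 for the small subunit. A change of at most 0.25 in either direction was seen in 41 of 48 large and 16 of 29 small subunit genes, against 57.2% of all genes, not matched for expression level. The larger median of the small subunit was not tested against that of the large one.

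Classes were also taken from the structural names, with MRPS18A and MRPS18B counted as mitochondria-specific although they are paralogues of a protein with a bacterial relative. The 30 large subunit genes with bacterial counterparts had a median log2 change of 0.07 (18 above 0), and the 20 mitochondria-specific ones, MRPS18A and MRPS30 included, a median of 0.12 (15 above 0). In the small subunit the 16 genes with bacterial counterparts had a median of 0.15 (11 above 0), and the 10 mitochondria-specific ones a median of 0.14 (6 above 0). The widest range, from −0.69 for MRPS24 to 0.47 for MRPS7, was that of the small subunit genes with bacterial counterparts, and 8 of those 16 lay within 0.25 of 0. The mitochondria-specific large subunit genes ranged from −0.21 to 0.36, and 15 of 20 lay within 0.25. No test was made between these classes.

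Summed over its genes, the large subunit reached 1297, 1414, 1272 and 1317 RPKM in HIF1A-KD 1 to 4, against 1096, 1423, 1250 and 1226 RPKM in shCtrl 1 to 4. The small subunit sum was 695, 678, 710 and 675 RPKM in HIF1A-KD 1 to 4, against 635, 684, 693 and 657 RPKM in shCtrl 1 to 4. Both sums overlapped between the lines, and shCtrl 1 held the lowest of each. The ratio of the large to the small sum was 1.92 ± 0.13 in HIF1A-KD and 1.87 ± 0.15 in shCtrl (SD, n = 4 each). By library number the median difference of the large subunit genes, HIF1A-KD minus shCtrl, was 0.22, −0.03, 0.06 and 0.03 for numbers 1 to 4. That of the small subunit genes was 0.24, −0.01, 0.18 and 0.10. All genes tested had medians of 0.12, 0.01, 0.15 and −0.03 in the same order. shCtrl 1 was the lowest of the shCtrl libraries for 39 of 77 members (50.6%, against 31.3% of all genes), and without it the large subunit median was −0.02. shCtrl 2 was the highest of them for 43 of 77 members (55.8%, against 28.4% of all genes), and without it that median was 0.12.

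**Figure D2:**
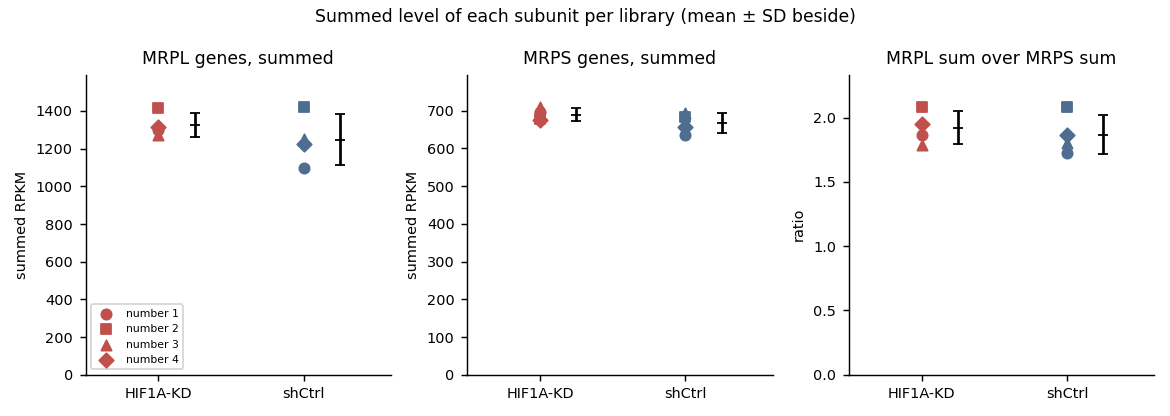
Summed RPKM of the MRPL genes, of the MRPS genes and their ratio, per library, with the mean ± SD (n = 4) beside the points of each line. HIF1A-KD and shCtrl points overlap in all 3 panels, and the lowest sums are those of shCtrl 1 (1096 and 635 RPKM).

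In 5 of 77 members (6.49%, against 5.40% of all genes, 3.27% higher and 2.13% lower) every HIF1A-KD library lay on the same side of every shCtrl library. Higher in HIF1A-KD were MRPS7, MRPS18A, MRPS21 and MRPL45, and lower was MRPS15. Of the genes with 4 of 4 same-numbered pairs higher in HIF1A-KD there were 18 members (23.4%, against 18.6% of all genes). In the other direction there were 6 members, against 10.9% of all genes. With numbers 3 and 4 crossed, 20 members had 4 of 4 pairs higher, against 24.2% of all genes, and 6 had 4 lower, against 14.4%. Pair counts below are as numbered, and among the genes given with 4 of 4 pairs on one side, MRPL54 and MRPS17 had 3 of 4 when crossed.

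MRPL20, an early rRNA-binding protein in bacteria, had 44.2, 54.7, 52.1 and 62.4 RPKM in HIF1A-KD 1 to 4, against 33.5, 46.5, 37.6 and 39.2 RPKM in shCtrl 1 to 4. HIF1A-KD 1 lay below shCtrl 2, so the groups overlapped, although all 4 pairs were higher in HIF1A-KD. Its log2 change was 0.44 ± 0.17 (SE), with a limma adjusted p of 0.536 unpaired and 0.0887 blocked. Among the stalk proteins, MRPL10 had 17.7, 21.1, 20.4 and 21.5 RPKM in HIF1A-KD 1 to 4, against 11.9, 16.0, 17.8 and 17.9 RPKM in shCtrl 1 to 4. Its groups overlapped, with a log2 change of 0.36 ± 0.18 (SE) and a limma adjusted p of 0.717 unpaired and 0.151 blocked. The log2 change was 0.02 ± 0.32 (SE) for MRPL12, which forms the stalk tip, and −0.10 ± 0.17 (SE) for MRPL11, at its base, and the difference between the stalk genes was not tested. MRPL45, which lies by the exit tunnel and ties the ribosome to the inner membrane, had 19.4, 19.4, 21.2 and 20.9 RPKM in HIF1A-KD 1 to 4, against 16.9, 17.3, 15.4 and 18.4 RPKM in shCtrl 1 to 4. These groups did not overlap, with a log2 change of 0.25 ± 0.14 (SE) and a limma adjusted p of 0.768 unpaired and 0.246 blocked.

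MRPL57, a mitochondria-specific protein, had 10.7, 11.6, 17.2 and 12.7 RPKM in HIF1A-KD 1 to 4, against 7.98, 9.69, 11.1 and 11.4 RPKM in shCtrl 1 to 4, a log2 change of 0.36. The groups overlapped, and 4 of 4 pairs were higher in HIF1A-KD. MRPL27, which reaches towards the catalytic centre in bacteria, had 53.9, 61.2, 41.1 and 45.2 RPKM in HIF1A-KD 1 to 4, against 42.4, 52.5, 34.7 and 35.1 RPKM in shCtrl 1 to 4. It was higher in 4 of 4 pairs at a log2 change of 0.29, although the range from lowest to highest library within each line exceeded that difference. MRPL54 and MRPL40, both mitochondria-specific, shared this pattern of 4 higher pairs and overlapping groups, at log2 changes of 0.35 and 0.26. The largest negative changes of large subunit genes were smaller: −0.21 for MRPL53, −0.15 for MRPL19 and −0.15 for MRPL4, which like MRPL22 lines the exit tunnel. MRPL4 had 21.3, 22.1, 22.6 and 21.1 RPKM in HIF1A-KD 1 to 4, against 21.7, 24.8, 25.6 and 24.4 RPKM in shCtrl 1 to 4, lower in 4 of 4 pairs with overlapping groups. MRPL3, of the core near the catalytic centre, had a log2 change of −0.08, and MRPL44, an RNase III-like protein at the ribosome surface, one of 0.17. The most abundant, MRPL51, MRPL41 and MRPL37, had log2 changes of 0.15, −0.07 and 0.08, and the low MRPL30 and MRPL22 had 0.12 and 0.21.

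MRPS7, which belongs to the head of the small subunit and is an early assembly protein in bacteria, had 41.3, 52.6, 37.1 and 40.3 RPKM in HIF1A-KD 1 to 4, against 29.9, 35.1, 28.6 and 29.3 RPKM in shCtrl 1 to 4. The lowest HIF1A-KD library stood above the highest shCtrl library. Its log2 change was 0.47 ± 0.16 (SE), with a limma adjusted p of 0.453 unpaired and 0.0569 blocked. MRPS10, also of the head, had 27.1, 34.1, 34.6 and 35.5 RPKM in HIF1A-KD 1 to 4, against 21.4, 27.2, 26.6 and 27.7 RPKM in shCtrl 1 to 4, a log2 change of 0.35, higher in 4 of 4 pairs with overlapping groups. Its limma adjusted p was 0.677 unpaired and 0.0975 blocked. MRPS21 had 18.1, 18.6, 25.1 and 24.4 RPKM in HIF1A-KD 1 to 4, against 14.8, 17.7, 16.7 and 16.2 RPKM in shCtrl 1 to 4. These did not overlap, at a log2 change of 0.38 ± 0.17 (SE) and a limma adjusted p of 0.639 unpaired and 0.169 blocked. MRPS28 had 14.3, 18.8, 18.9 and 13.97 RPKM in HIF1A-KD 1 to 4, against 11.0, 15.4, 10.4 and 13.2 RPKM in shCtrl 1 to 4, a log2 change of 0.40 with overlap.

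MRPS18A, MRPS18B and MRPS18C are paralogues related to the same bacterial small subunit protein. MRPS18A, which sits in the large subunit, had 53.7, 46.2, 48.6 and 42.6 RPKM in HIF1A-KD 1 to 4, against 39.5, 35.2, 37.7 and 39.1 RPKM in shCtrl 1 to 4. Its groups did not overlap, with a log2 change of 0.33 ± 0.14 (SE) and a limma adjusted p of 0.624 unpaired and 0.138 blocked. MRPS18C had a log2 change of 0.17, and MRPS18B, at its uncertain level, one of 0.33, both with overlapping groups.

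MRPS24 is the mitochondrial counterpart of the bacterial protein at the mRNA entry, in the head of the subunit. It had 10.2, 7.85, 9.25 and 7.55 RPKM in HIF1A-KD 1 to 4, against 15.2, 9.38, 17.1 and 16.0 RPKM in shCtrl 1 to 4. HIF1A-KD 1 lay above shCtrl 2, while the other libraries separated and all 4 pairs were lower in HIF1A-KD. The log2 change was −0.69 ± 0.22 (SE), the largest in size among members, with a limma adjusted p of 0.413 unpaired and 0.0886 blocked. MRPS15, an early binder of the rRNA in bacteria, had 54.4, 60.1, 58.0 and 60.8 RPKM in HIF1A-KD 1 to 4, against 67.7, 66.0, 84.6 and 76.1 RPKM in shCtrl 1 to 4. Its groups did not overlap, at a log2 change of −0.33 ± 0.15 (SE) and a limma adjusted p of 0.642 unpaired and 0.144 blocked. Of all members MRPS15 had the pattern most like MRPS24 over the 8 libraries (Pearson r of 0.80), followed by MRPL4 (0.54), MRPS2 (0.40), MRPL34 (0.33) and MRPL2 (0.32). MRPS24 was the reference because its unpaired p was the smallest of the members, and r over both lines includes the difference between them. The correlations are a description.

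MRPS17, an rRNA-binding protein of the subunit body in bacteria, had 20.0, 27.9, 64.7 and 51.3 RPKM in HIF1A-KD 1 to 4, against 23.7, 49.1, 76.0 and 62.9 RPKM in shCtrl 1 to 4. The log2 change of −0.40 was smaller than the range within either line, although 4 of 4 pairs were lower in HIF1A-KD as numbered. It was −0.10 without HIF1A-KD 1 and −0.74 without shCtrl 1. MRPS26 (−0.42) and MRPS12 (−0.29), a protein of the decoding centre, had negative changes with overlapping groups. That of MRPS26 ranged from −0.73 without shCtrl 3 to −0.12 without HIF1A-KD 4, and that of MRPS12 from −0.52 without shCtrl 4 to −0.047 without HIF1A-KD 3. MRPS22 and MRPS34, genes in which inherited defects of mitochondrial translation are known, had changes of 0.28 and 0.12. MRPS16, another such gene, was at 0.00. MRPS30 had a log2 change of 0.22 and MRPS36 one of 0.15. In the authors' deposited table, which lists all 77 members, 3 have an adjusted p under 0.05: MRPS24 (moderated log2 change −0.67, adjusted p 0.0176), MRPS7 (0.38, 0.0290) and MRPS17 (−0.43, 0.0473). Those are 3.90% of the members, against 9.02% of the 13627 genes in that table (3.94% higher and 5.08% lower). The authors' deposited table names its groups only A and B, and its log2 changes were read as HIF1A-KD over shCtrl because 99.97% of 3055 genes with a change of 0.5 or more in size there had that sign in the RPKM values.

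**Figure D3:**
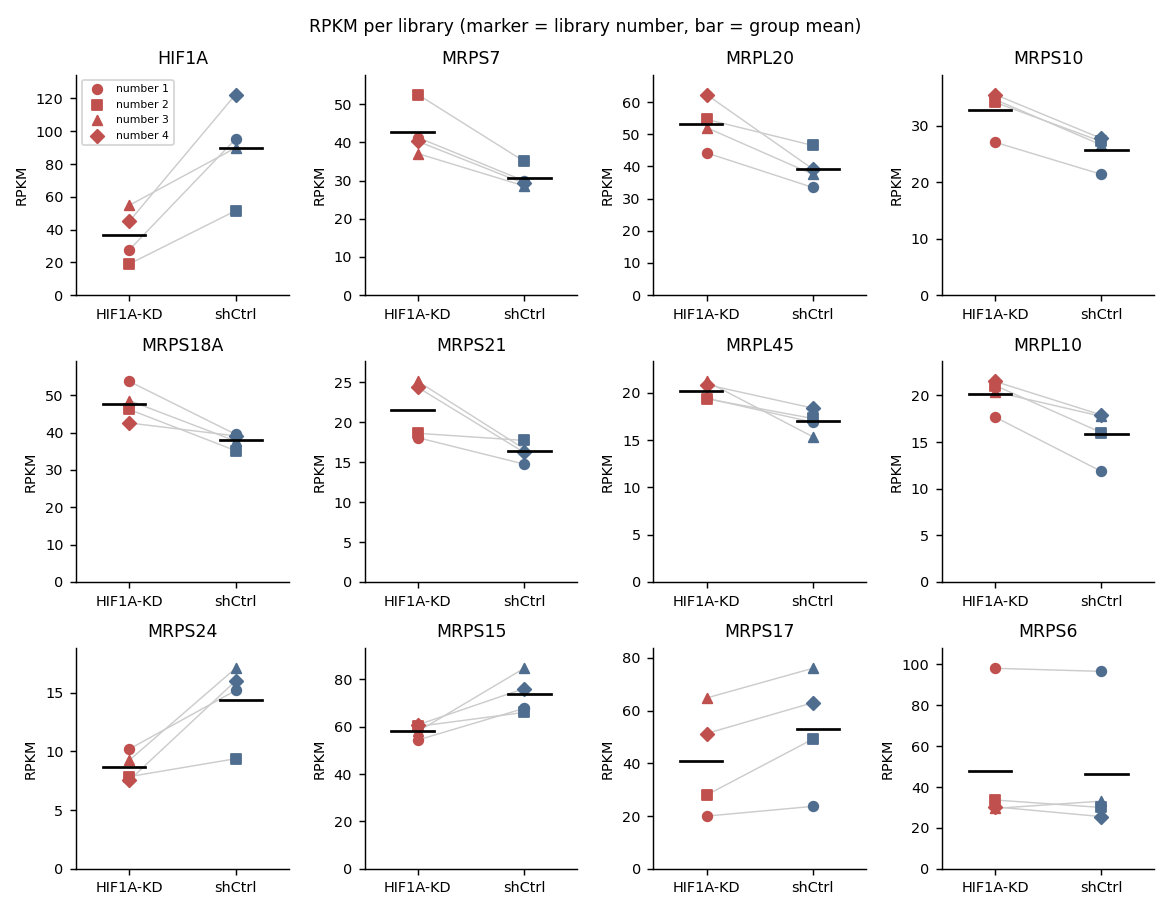
RPKM in each library of HIF1A and 11 mitochondrial ribosomal protein genes, HIF1A-KD left and shCtrl right; markers show the library number, grey lines join libraries of the same number and bars are group means. MRPS7, MRPS18A, MRPS21 and MRPL45 have every HIF1A-KD library above every shCtrl library, MRPS15 the reverse, and MRPS6 has its highest value at number 1 in both lines (98.1 and 96.6 RPKM).

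Libraries numbered 3 and 4 parted from 1 and 2 in both lines, and this difference was larger than that between the lines in 54 of 77 members (70.1%, against 67.5% of all genes). Its median absolute size in members was 0.29 on the log2 scale, against 0.15 for HIF1A-KD minus shCtrl. Over all genes tested these values were larger, at 0.40 and 0.21. MRPL41 had 91.8, 103, 32.8 and 32.1 RPKM in HIF1A-KD 1 to 4, against 71.4, 96.8, 41.6 and 41.8 RPKM in shCtrl 1 to 4, a difference of −1.29 between the numbers. MRPL55 and MRPS26 were also lower at numbers 3 and 4, with log2 differences of −1.15 each, and MRPL12 with −0.88. In the other direction MRPS17 was higher by 1.15, MRPL32 by 0.89, MRPS5 by 0.80 and MRPL51 by 0.68. In total 41 of 77 members were higher at numbers 3 and 4, against 5684 of 11899 genes tested. The labels do not say what sets the numbers apart. Within numbers 1 and 2 the median change between the lines was 0.10 for the large and 0.10 for the small subunit, and within 3 and 4 it was 0.05 and 0.18.

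**Figure D4:**
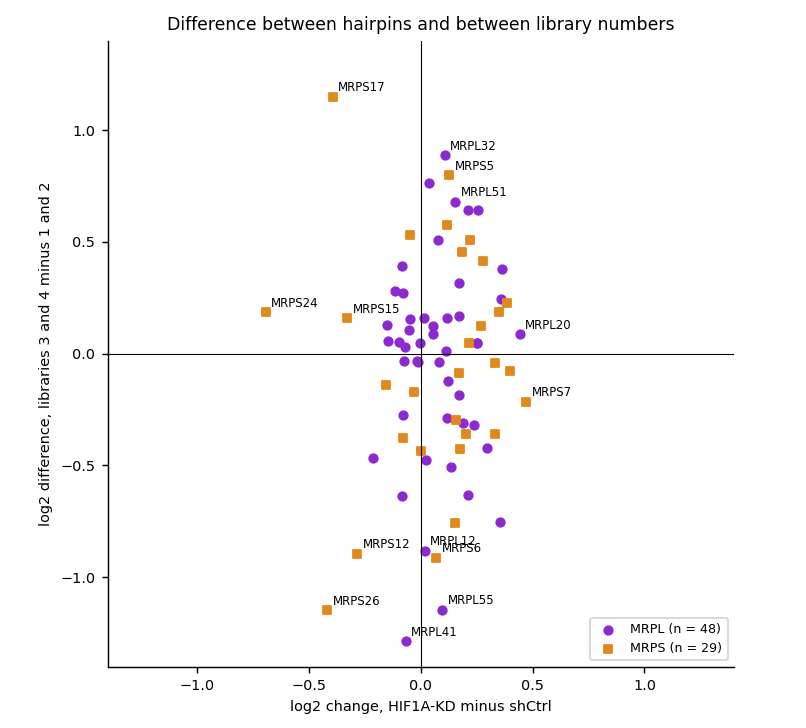
Each point is a member, with its log2 change between the lines (horizontal) and its log2 difference between libraries 3 and 4 and libraries 1 and 2 (vertical), on equal scales. The points spread more along the vertical axis, from MRPL41 (−1.29) to MRPS17 (1.15), than along the horizontal one.

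MRPS6 stood out by a single number. It had 98.1, 33.6, 29.6 and 30.3 RPKM in HIF1A-KD 1 to 4, against 96.6, 30.0, 33.1 and 25.5 RPKM in shCtrl 1 to 4. In the table (hg19) its gene starts at the same base of chromosome 21, on the same strand, as SLC5A3, a myo-inositol transporter gene that was looked up after the values were seen. SLC5A3 had 12.8, 1.29, 1.76 and 1.63 RPKM in HIF1A-KD 1 to 4, against 16.1, 1.47, 1.84 and 1.79 RPKM in shCtrl 1 to 4, so it too was highest at number 1 in both lines. The sources used here do not say how reads over shared sequence were assigned.

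Of 76 members with readable coordinates in the table (hg19), 29 (38.2%) had a head-to-head neighbour whose start lay within 1000 bases, against 20.7% of the 11802 genes. Of 23 such neighbours that were tested, 11 had a log2 change of the same sign as the member's. MRPL46 and MRPS11, with opposite signs, are neighbours of each other and were counted from both sides. The share with the same sign over all genes was not counted. Other genes overlapped 15 members (19.7%, against 28.5%). MRPS7 overlaps GGA3 and MIF4GD, which had log2 changes of 0.37 and 0.61, and MRPS24 overlaps the readthrough gene URGCP-MRPS24, which stayed at or below 0.784 RPKM. Median changes of members with and without a motif were 0.16 and 0.08 for YY1, 0.14 and 0.08 for ETS, and 0.11 and 0.11 for the HIF core. They were 0.07 and 0.11 for the NRF1 core (8 members with it) and 0.15 and 0.10 for the E-box (7 with it). The 20 members with a YY1 motif ranged from −0.69 to 0.47. Differences between members with and without a motif were not tested.

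Around the ribosome, 0 genes passed limma's adjusted threshold in any list, against 0.0420% of all genes unpaired and 1.83% blocked as numbered. Calls with numbers 3 and 4 crossed are not given for these lists. Assembly factors, the GTPases, helicases and methyltransferases that build the subunits, had a median log2 change of 0.12 with 18 of 27 above 0. The extremes were MTG2 (−0.54), a GTPase of the large subunit, MRM1 (−0.44), an rRNA methyltransferase, and TFB1M (0.43), which methylates the small rRNA. MTG2 had 6.86, 9.12, 7.46 and 6.72 RPKM in HIF1A-KD 1 to 4, against 9.15, 14.5, 12.1 and 9.05 RPKM in shCtrl 1 to 4, lower in 4 of 4 pairs with overlapping groups. Translation factors had a median of 0.04 with 8 of 15 above 0, from PDF (−0.83), the deformylase of new proteins, to the initiation factor MTIF3 (0.35). Mitochondrial tRNA synthetases had one of 0.10 with 14 of 19 above 0, led by VARS2 (0.45) for valine and WARS2 (0.44). WARS2, for tryptophan, had 2.36, 2.48, 2.47 and 3.50 RPKM in HIF1A-KD 1 to 4, against 1.94, 2.23, 1.62 and 2.02 RPKM in shCtrl 1 to 4, without overlap and with a limma adjusted p of 0.707. Mitochondrial transcription genes had a median of 0.05 (7 genes), with TFB2M at −0.26 and SLIRP at 0.19. Regulators of mitochondrial biogenesis had one of 0.13 (9 genes), with MYC at −0.29 and GABPB1 at −0.18. Mitoribosomal proteins under other names had a median of 0.05, with PTCD3, of the small subunit, at 0.41 and ICT1, a peptidyl-tRNA hydrolase built into the large subunit, at 0.28.

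**Figure D5:**
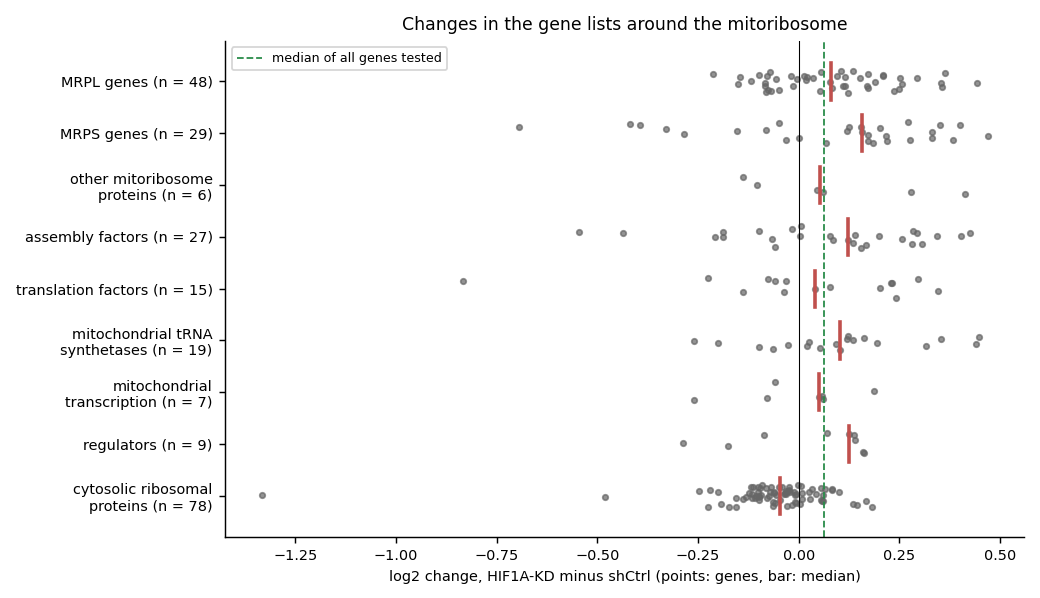
Log2 change (HIF1A-KD minus shCtrl) of each gene in the mitoribosomal and related lists, with list medians as bars and the median of all genes tested (0.06) as a dashed line. Cytosolic ribosomal proteins lie mostly below 0 in a narrow band, and the mitoribosomal lists mostly around or above the dashed line.

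The cytosolic ribosome, which makes these proteins, showed a narrower spread of changes. Of 78 genes tested, 57 were below 0 and 21 above it, with a median log2 change of −0.05. With median-of-ratios scaling 71 were below 0. Of all genes, 58.7% were above 0, and 48.9% with that scaling. RPL21 (−1.33), a gene with many processed copies whose reads are uncertain, and RPS21 (−0.48) had the largest changes. None of the 78 passed the limma threshold, against 0.0420% of all genes unpaired and 1.83% blocked. Groups did not overlap in 2 (2.56%), against 5.40% of all genes. Changes within 0.25 of 0 were seen in 97.4% of the cytosolic genes, against 74.0% of the mitochondrial members and 57.2% of all genes. Genes were not matched for expression level in these shares. Of 20 proliferation genes only 10 passed the filter on low values. These had a median of −0.20 with 8 of 10 below 0, led by MCM2 (−0.72) and CCNB1 (−0.69). Each of these medians is a description beside that of all genes, and the difference between the lists was not tested.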

How the data were processed

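Total RNA from 8 libraries of EPC2-hTERT cells was sequenced after NEBNext Ultra preparation, per the labels' protocols. Per the submitters' processing notes, the tools included HTSeq 0.6.1, Picard 1.129, Bowtie2 2.2.3.0, TopHat2 2.0.13, FastQC 0.11.5, SAMtools 1.3.1 and bcl2fastq; the notes list hg19 and hg38 without a role, and the table's contig names are those of hg19. The deposited table holds RPKM values made by the authors, although its name says raw counts: multiplied by gene length, 100% gave whole reads within 0.01 read for the 24772 genes with a readable length. The authors' second deposited table gives a fold ratio, a moderated log2 change, and p-values; the sources used here do not name its tool.

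Values were analysed as log2(RPKM + 0.1), which understates changes of low genes, with limma 3.58.1 (R 4.3.3), with trend and robust moderation, two-sided, without a block, and Benjamini-Hochberg adjustment over 11899 genes at or above 0.5 RPKM in at least 4 libraries; the threshold was 0.05. Groups came from the titles. Same-numbered libraries deviated together (correlations 0.754, 0.730, 0.252 and 0.257), which by rule made the number a pairing, from the data and not the labels; for numbers 3 and 4 the crossed correlations were higher (0.463 and 0.613). The paired fit is given where it changes a call, and for members given with an adjusted p. Named members were those with groups that do not overlap, the highest and lowest levels, the largest changes in each subunit and fixed landmarks, with the 2 largest changes of each related list. MRPS10, MRPL27, MRPL40 and MRPL54 fall outside these reasons. They are among the 18 members with 4 of 4 pairs higher, and not among the 36 named genes followed through the alternatives. The members and lists were chosen with earlier results of these data known. Alternatives were other pseudocounts, no filter, median-of-ratios scaling, limma-voom, the library split and leaving out each library. The code was tested on simulated data.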

Additional observations from a re-analysis of the deposited data

Results flagged for a closer look

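Within a line, the library farthest from the others was checked for each named gene and for the subunit sums and their ratio, and 4 of 78 checks passed the critical value for 4 samples, where chance passes about 1 in 20. MRPS6 was high in HIF1A-KD 1 (98.08 RPKM) and in shCtrl 1 (96.58 RPKM), the libraries of the same number, where SLC5A3 was high as well. MRPL44 was low in HIF1A-KD 4 (12.13 RPKM), and MRPS22 was low in shCtrl 1 (21.07 RPKM).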

How the results depend on the processing

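No member was called under the settings planned, which were the replicate block, pseudocounts of 1 and 0.01, no filter, median-of-ratios scaling, limma-voom, a term for the library split, each part of that split alone, and each library left out with or without the block. The exception is a crossed pairing of numbers 3 and 4, added after seeing the data, which called 9 of 77 members (11.7%) and 1327 of 11899 genes (11.2%). Over all genes the 5 unpaired calls became 218 with the block, 3 with either pseudocount and with limma-voom, and 1 without the filter. They became 8 with median-of-ratios scaling, 102 with the split as a term and 0 in libraries 1 and 2 alone. With a library left out and no block, 0 to 3 genes were called. Where so few genes pass, the absence of member calls says little. Calls over all genes were not counted in the blocked fits with a library left out, so their member calls have no share of all genes beside them. The median of the large subunit ranged from −0.02 to 0.12 with a library left out, the lowest without shCtrl 1, and that of the small subunit from 0.10 to 0.21. Of 36 named genes, 25 kept their sign in every setting. Small changes turned: MRPL41 to 0.23, MRPL53 to 0.10 and MRPS25 to −0.071 in libraries 1 and 2 alone, MRPS16 to −0.077 in 3 and 4 alone, and with median-of-ratios scaling MRPS6 to −0.0051, MRPL12 to −0.056 and MRPS16 to −0.071. With a library left out the changes ranged from −0.054 to 0.19 for MRPL37, −0.36 to 0.20 for MRPL41, −0.065 to 0.32 for MRPL51, −0.35 to 0.50 for MRPS6, −0.051 to 0.23 for MRPS34, −0.15 to 0.23 for MRPL12, −0.24 to 0.021 for MRPL3, −0.10 to 0.13 for MRPS16 and −0.0092 to 0.31 for MRPS36; the cause was not tested.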
